A study of Mus musculus with 2 samples.

Results

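Kainate receptor subunits (Grik1 to Grik5), the delta subunit Grid1 and the auxiliary proteins Neto1 and Neto2 were profiled on arrays of hippocampal RNA from mice of the outbred ICR stock. The operation, either sham or 5/6Nx, had been performed 8 weeks earlier. The term 5/6Nx commonly stands for 5/6 nephrectomy, the surgical removal of most kidney tissue as a model of chronic kidney disease. Members were taken by gene name from the non-control spots of both scanner files, which gave 13 probes for 8 genes, of 25917 genes and transcripts measured on both arrays. Of the 8 genes, 5 had 2 probes and 3 had 1 probe. There was 1 Cy3-labelled array of the sham group and 1 of the 5/6Nx group, so the groups could not be tested against each other and each difference describes these 2 arrays only. The labels used here do not give the number, sex or age of the mice behind each array, and the labels state no treatment other than the operation. Probes for the 10 pan-neuronal markers examined, all 9 of dentate granule cells and all 8 of CA1 pyramidal cells were well above background on both arrays, as were 10 of 11 for CA2 and CA3.

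Kainate receptors are tetrameric glutamate-gated cation channels that act on both sides of the synapse. Subunits of the Grik1, Grik2 and Grik3 genes (GluK1, GluK2 and GluK3) form channels on their own, whereas those of Grik4 and Grik5 (GluK4 and GluK5) bind agonist with high affinity and need a partner of the first kind. Neto proteins are transmembrane auxiliary subunits that slow channel gating and alter targeting, and delta receptors are built like glutamate receptors but bind cerebellins and act in synapse organisation. In the hippocampus, kainate receptors are best known from the mossy fibre synapse between dentate granule cells and CA3 pyramidal cells.

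The values below rest on 60-base probes, and a gene is read only through the stretch that its probe covers. The first 30 bases of the probes of Grik3, Grik2, Grik4 and Grik5 are given as deposited, 5′ to 3′, because the largest member difference, the largest disagreement between probes of 1 gene and the closest pair of differences rest on them.
Grik3 A_66_P120555: attattttcctttttaagacactgtgatat
Grik3 A_55_P2158251: tcttgtctatggctttctgaagctgtgaag
Grik2 A_55_P2039992: aaatacagagaatacccaagtctcctccat
Grik2 A_55_P2039981: tagaaaatatacatcaaggggtcttaggat
Grik4 A_51_P384994: gccgagagagcagtccaagaattgatggtg
Grik5 A_51_P428754: ttctctcttttttggggggagaaacctcag
The probes of different members shared no run longer than 8 bases with each other. Of the 13 probes, 12 shared no run of 16 bases with a probe of any other gene on the array, and the exception was the Grik1 probe A_66_P131466, which shared 16 bases with a probe of Slain1os. Their GC content ran from 30% in the first Grik3 probe to 55% in the second Grik3 probe and the Grid1 probe. No transcript or genome sequence of the build was used, so the exon or untranslated region under each probe is not stated.

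Signals are given as deposited, in arbitrary units, and cannot be compared between probes. Differences are log2 values, 5/6Nx minus sham, relative to the 75th percentile of the same array, which was 1452 in sham and 1263 in 5/6Nx. A signal that was equal on both arrays therefore has a difference above 0. The size of this offset shows in the Grik2 probe A_55_P2039992, which had 608 in sham and 599.96 in 5/6Nx and yet a difference of 0.18. A small difference above 0 thus does not mean a higher deposited signal. Each member had 1 spot per probe, so its technical error was read from probes printed in replicate: the SD of 1 spot's difference among replicated probes of similar signal ran from 0.032 to 0.24 over the 13 probes. This spot SD does not hold the variation between animals, nor error that all spots of a probe on an array share, such as that of labelling and hybridization. The scanner files give their own signal error, which ran from 10% to 14.3% of the signal over the 13 probes. All 13 probes were well above background on both arrays, and none had an outlier flag. Where a gene has several probes, the brightest on average stands for it.

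Relative to all other transcripts, the kainate receptor family did not shift as a block. Grik3 was at least 2-fold lower in 5/6Nx, Grik1 and Neto2 lay below 0, and Grik2, Grik4, Grik5, Grid1 and Neto1 lay above 0, of which Grik2 did not keep its sign when the arrays were scaled to the spike-in probes. The median of the 8 genes was 0.24, with a range from -1.05 to 0.42, against a median of 0.05 and an SD of 0.60 over all measured genes. Of the members, 1 of 8 was at least 2-fold lower, where 3.29% of all measured genes were, and 0 of 8 were at least 2-fold higher, where 4.89% were. A difference above 0 was found in 5 of 8 members and in 55.4% of all measured genes, and one below 0 in 3 of 8 members and 44.6% of genes. At a threshold of 1.5-fold, Grik3 was still the only member that was lower (1 of 8, against 8.92% of genes), and 0 of 8 were higher, against 13.7%. Of the 4 members with more than the median signal, which were Grik3, Grik4, Grik5 and Neto1, 1 was at least 2-fold lower, against 2.35% of such genes, and 0 were higher, against 2.46%. Each of these counts lay within 2 genes of what the background share gives for a list of that length. Scaling to the spike-in probes lowered every difference by 0.22 and left the median of the members at 0.024, so the values are read relative to the other genes. Of all 2-fold differences 59.8% were higher in 5/6Nx, compared with 49.2% after quantile normalization, 49.4% in the authors' normalized table, 47.9% with the trend with signal removed, 41.5% after scaling to the median and 36.2% with the spike-in probes.

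**Figure D1:**
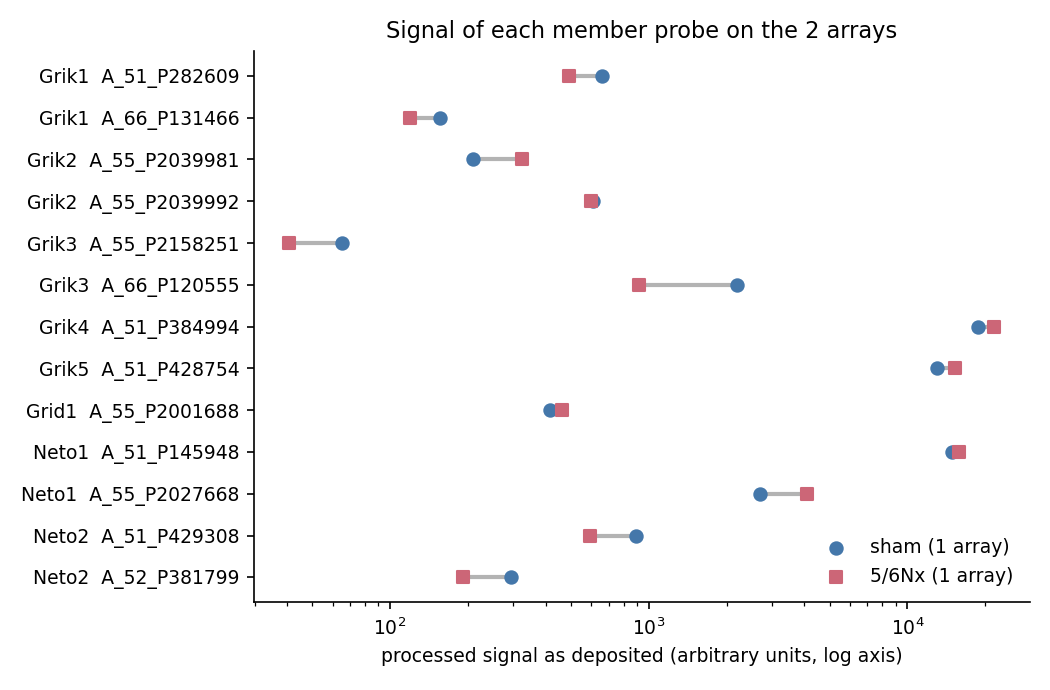
Processed signal (arbitrary units, log axis) of each of the 13 member probes, with sham as circles and 5/6Nx as squares, 1 array each. The widest gap is that of the Grik3 probe A_66_P120555, with 2188 in sham and 919 in 5/6Nx, and the Grik2 probe A_55_P2039992 has almost the same signal on both arrays; positions of different probes along the axis are not comparable.

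Among the subunits that form channels on their own, Grik3 had the lowest difference of all members. Its probe A_66_P120555, on mm9 chromosome 4 from 125391317 to 125391376, had a signal of 2188 in sham and 919 in 5/6Nx. The sham array was the higher of the 2, and the difference was -1.05 (2.07-fold lower, spot SD 0.053). Only 2.88% of all measured genes had a lower difference. The second Grik3 probe, A_55_P2158251, lies 5.72 kb away at 125385533 to 125385592, and its signal was 65.2 in sham and 40.8 in 5/6Nx. It also read lower in 5/6Nx, at -0.48, with a spot SD of 0.24 at this low signal. The 2 values for Grik3 differed by 0.57, a larger gap than in 78.2% of the 5235 genes with exactly 2 measured probes, and their mean of -0.76 falls short of 2-fold. Without background subtraction the dim probe stood at -0.081, and the bright one at -0.93.

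Grik1, whose product is prominent in GABAergic interneurons, had differences that were small and alike on its probes. A_51_P282609 (chromosome 16, 87896231 to 87896290) gave 662 in sham and 492 in 5/6Nx, a difference of -0.23 with a spot SD of 0.072. A_66_P131466, which carries a different transcript identifier and lies 16.5 kb away, gave 157 and 119, a difference of -0.20 with a spot SD of 0.13. The identifiers of the Grik1 probes come from different databases, and whether they stand for different transcripts was not tested. Both values lay inside the middle 50% of all measured genes, which runs from -0.23 to 0.35. The transcript 4930590A17Rik, probed between these positions on the same strand, had a difference of 0.083.

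Grik2, which encodes the core subunit of mossy fibre kainate receptors, depended on the probe. A_55_P2039992, designed on transcript variant 1 and located on chromosome 10 between 49243534 and 49243593, had a signal of 608 in sham and 599.96 in 5/6Nx. Its difference was 0.18 with a spot SD of 0.072, and -0.035 when the arrays were scaled to the spike-in probes. A_55_P2039981, designed on transcript variant 2, lies 424 kb further along the gene's direction, at 48819269 to 48819325, and its mapped stretch covers 57 bases of the genome. It gave 210 in sham and 323 in 5/6Nx, so the 5/6Nx array was the higher, with a difference of 0.82 (1.77-fold higher, spot SD 0.094). The gap of 0.64 between these probes exceeded their combined spot SD of 0.12 and was larger than in 81.5% of the genes with 2 measured probes. A cDNA clone that the RefSeq gene table lists as a synonym of Grik2, C130030K03Rik, is probed 6015 bases beyond the variant 2 probe on the same strand. It is no member under the naming rule, and it gave 360.4 in sham and 280.5 in 5/6Nx, a difference of -0.16. Readings near Grik2 thus ran from -0.16 to 0.82 within 1 pair of arrays, and which transcripts each probe captures was not tested.

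The high-affinity subunits had nearly equal differences. The Grik4 probe (A_51_P384994, chromosome 9, 42328570 to 42328629) had a signal of 18690.2 in sham and 21717 in 5/6Nx. Its difference was 0.42 (1.34-fold higher, spot SD 0.034). The Grik5 probe (A_51_P428754, chromosome 7, 25794943 to 25795002) had a signal of 13055 in sham and 15220.5 in 5/6Nx. Its difference was also 0.42 (1.34-fold higher, spot SD 0.032). GluK4 is known for its enrichment in CA3 pyramidal cells and dentate granule cells, whereas GluK5 is found widely across neurons. Of all measured genes, 20.9% had a higher difference than Grik4 and 20.6% a higher one than Grik5.

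Scaling by a constant moves all genes alike and leaves the contrast between members as it is; the ranges below come from the other alternatives. Grik4 and Grik5 differed by -0.0048 in their differences, within the combined spot SD of 0.047. Over the alternatives this contrast ran from -0.053 to 0.0024, and its lower end, from a different background correction, lies outside that SD. Grik4 stood 1.47 above Grik3, a 2.76-fold shift in their ratio between the arrays, and this contrast ran from 1.18 to 1.57 over the alternatives. Grik5 stood 1.47 above Grik3 as well, with a range from 1.19 to 1.57. These contrasts were picked after the values were seen.

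Grid1, which encodes the delta subunit GluD1, was represented by the probe A_55_P2001688 on chromosome 14 between 36393854 and 36393913. Its signal was 417 in sham and 464 in 5/6Nx. The difference was 0.36 (1.28-fold higher, spot SD 0.074), at the upper edge of the middle 50% of all genes, and it was 0.14 under spike-in scaling.

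The Neto genes lay on opposite sides of 0. Neto1 encodes the auxiliary protein found at the mossy fibre synapse with Grik2 subunits, and its probe A_51_P145948 (chromosome 18, 86670386 to 86670445) gave 14837 in sham and 15897 in 5/6Nx. Its difference was 0.30 with a spot SD of 0.033. The second Neto1 probe, A_55_P2027668, was designed on a cDNA clone, lies 1.64 kb away and gave 2701 in sham and 4109 in 5/6Nx. Its difference was 0.81 (1.75-fold higher, spot SD 0.042), so both probes read higher in 5/6Nx, although by unequal amounts. Neto2, the related auxiliary protein, read lower on both probes. A_51_P429308 (chromosome 8, 88161508 to 88161567) gave 891 in sham and 592 in 5/6Nx, a difference of -0.39 with a spot SD of 0.064. A_52_P381799, 2.75 kb away, gave 293 and 191, a difference of -0.42 with a spot SD of 0.095. The Neto2 probes differed from each other by 0.027, less than their combined spot SD of 0.11. Neto1 stood 0.69 above Neto2, with a range from 0.55 to 0.96 over the alternatives.

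**Figure D2:**
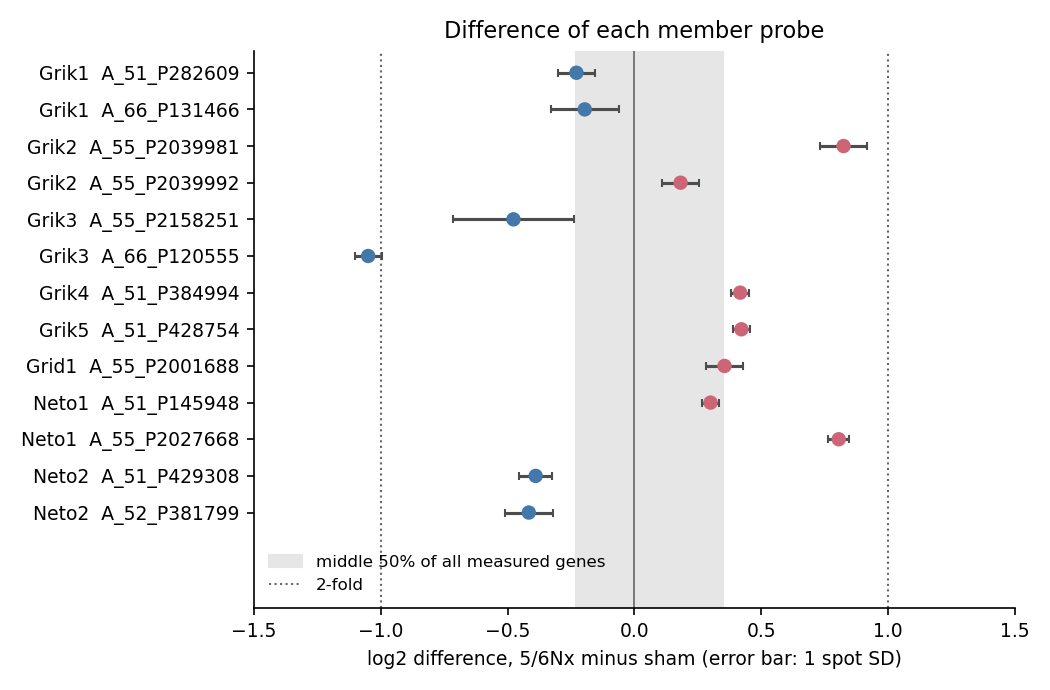
Log2 difference, 5/6Nx minus sham, of each member probe, with error bars of 1 spot SD, the middle 50% of all measured genes shaded and 2-fold marked by dotted lines. The Grik3 probe A_66_P120555 at -1.05 is the only one beyond 2-fold, and the probes of 1 gene lie on the same side of 0 for all 5 genes that have 2.

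All 5 members with 2 probes had both on the same side of 0, where 71.3% of all genes with exactly 2 measured probes did. Under spike-in scaling this held for 4 of the 5, Grik2 being the exception. The agreement was close for Grik1 and Neto2, whose probe values lay 0.033 and 0.027 apart, less than the median of 0.24 over the 5235 genes. It was loose for Grik2, Grik3 and Neto1, with gaps of 0.64, 0.57 and 0.51. For these 3 genes the difference depended on the probe by that amount, and whether the probes read different transcripts was not tested. The gaps exceeded the combined spot SD of the probes, which was 0.12 for Grik2, 0.25 for Grik3 and 0.053 for Neto1.

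Genes that work with these receptors were described by lists. The organiser list holds 9 genes for cerebellins, C1q-like proteins and neurexins, which bridge the synaptic cleft to delta or kainate receptors, and all 9 were measured. Of these, 5 lay below 0 and 4 above, with a median of -0.17, and 2 were at least 2-fold lower and 0 higher. Cbln1, the cerebellin that ties neurexins to delta receptors, had a signal of 2557 in sham and 237 in 5/6Nx. The difference was -3.23 (9.38-fold lower), and its second probe was well above background in sham only. Cbln4, a related cerebellin, gave 481 in sham and 104 in 5/6Nx, a difference of -2.01 (4.02-fold lower, 1 probe). The C1q-like genes C1ql2 and C1ql3, made by granule cells and known to bind kainate receptors at mossy fibre synapses, were named outside the rule for lists, after their values were seen, and had differences of 0.46 and 0.54. Also named after their values were seen, the cerebellin Cbln2 stood at -0.17, and the neurexins Nrxn2 and Nrxn3 at 0.15 and 0.30, so the organisers did not share a direction.

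Of the list of 12 scaffold and trafficking partners of kainate receptors, 6 lay above 0 and 6 below, with a median of 0.024. On the probe that stands for each gene, 0 were beyond 2-fold. The median was below 0 after scaling to the median or the spike-in probes and with both other background corrections. By the brightest probe, the largest difference in the list was that of Kif17, a kinesin motor of dendritic receptor transport. Kif17 gave 714 in sham and 1061 in 5/6Nx (0.77), and its other probes stood at 0.48 and 0.20. Grip1, named after its values were seen, stood at 0.18 on its brightest probe, and its other probes stood at 0.25 and -1.48. The list of 3 genes of the RNA-editing ADAR family had a median of -0.11. Adarb1, which edits kainate and AMPA receptor transcripts, stood at -0.14, and Adarb2, a family member with no known editing activity, stood at 0.69 (143 in sham and 201 in 5/6Nx).

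The AMPA and NMDA receptor subunits, the nearest relatives, had a median of 0.09 over 11 measured genes, with 7 above 0, 1 at least 2-fold higher and 0 lower. Under spike-in scaling that median was -0.13 with 5 above 0, and it also lay below 0 after scaling to the median. Gria2, which encodes the AMPA subunit that limits calcium entry, was the highest with 1446 in sham and 3033 in 5/6Nx (1.27), although its second probe stood at -0.80. Grin3a, an NMDA receptor subunit, was the lowest with 2906 in sham and 1371 in 5/6Nx (-0.88), and -0.60 on its other probe. Auxiliary proteins of AMPA receptors had a median of 0.09, with 6 of 11 above 0 (3 under spike-in scaling, with a median of -0.13). Among them, Shisa9 gave 662 in sham and 2087 in 5/6Nx on its only probe (1.86). Gsg1l gave 3475 and 1212 (-1.32), with -1.23 on its second probe.

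**Figure D3:**
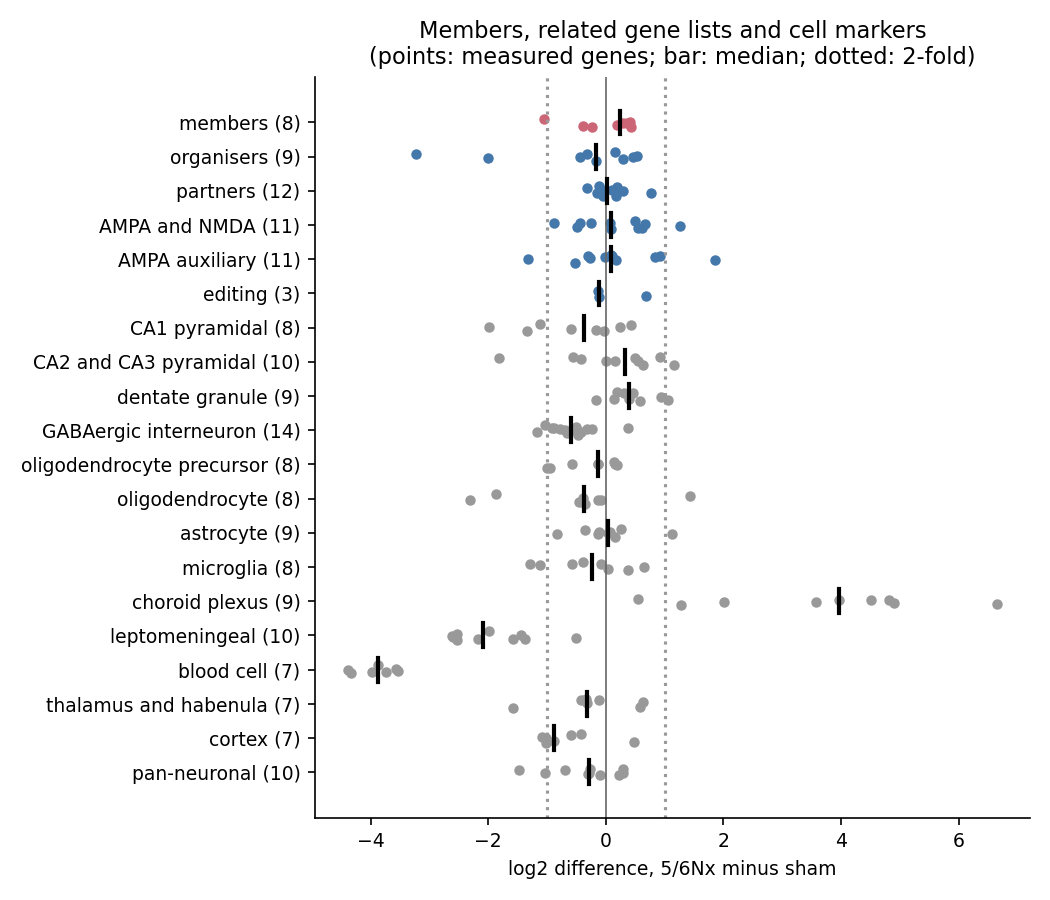
Log2 differences, 5/6Nx minus sham, of the members (top row), 5 related gene lists and 14 lists of cell or region markers, with 1 point per measured gene, bars for medians and dotted lines at 2-fold; the number of measured genes stands beside each name. Cbln1 (-3.23) and Cbln4 (-2.01) stand apart in the organiser row, and the choroid plexus, leptomeningeal and blood cell rows lie far from 0.

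Marker genes of several hippocampal cell types differed between the arrays too. In bulk tissue fewer cells of a type and less RNA per cell cannot be told apart. Pan-neuronal markers had a median of -0.28, with 7 of 10 below 0 and 2 at least 2-fold lower, which were Tubb3 (-1.48) and Elavl4 (-1.03). Their summed signal was 592992 in sham and 513171 in 5/6Nx. Markers of GABAergic interneurons, where Grik1 is prominent, had a median of -0.60, with 13 of 14 below 0 and 2 at least 2-fold lower. Their summed signal was 475566 in sham and 271238 in 5/6Nx, of which the Cck probe alone gave 263177 and 142187. Such sums add probes of unequal response and follow the probes with the highest signal. All sums here and below are of deposited signals and are not scaled between the arrays. The 75th percentile itself was 1452 in sham and 1263 in 5/6Nx, so a sum can be lower in 5/6Nx without a lower scaled value. Dentate granule cell markers had a median of 0.40, with 8 of 9 above 0, and those of the CA2 and CA3 pyramidal layer, known for Grik4, had a median of 0.33, with 7 of 10 above 0. The summed signal of the granule cell markers was 28379 in sham and 29149 in 5/6Nx, and that of the CA2 and CA3 markers 88177 and 70457, of which the Pcp4 probe gave 55322 and 36041 (-0.42). Under spike-in scaling these medians were 0.18 and 0.11, with 6 of 9 and 5 of 10 genes above 0. CA1 markers had a median of -0.38, with 6 of 8 below 0 and a summed signal of 150838 and 68153. One of these markers, Dcn (-1.99), also marks leptomeningeal cells. The lists share further genes. C1ql2 of the granule cell markers is also an organiser, Cacng5 of the CA2 and CA3 markers an AMPA auxiliary gene, and Snap25 of the pan-neuronal markers a partner. Oligodendrocyte precursors, another cell type known to make kainate subunits, had a median of -0.13, with 5 of 8 below 0 and summed signals of 36611 and 22336. Oligodendrocyte markers had a median of -0.37, with 7 of 8 below 0, and microglial markers one of -0.23, with 5 of 8 below 0. Astrocyte markers had a median of 0.033, with 5 of 9 above 0, and this median changed sign in 4 alternative settings.

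Markers of neighbouring tissue differed in the same pair of arrays, some in the direction of Grik3 and Cbln1. Cortical markers had a median of -0.87, with 6 of 7 below 0 and 3 at least 2-fold lower, among them Cux2 (-1.01). The number at least 2-fold lower was 0 with both other background corrections and 4 after scaling to the median or the spike-in probes. The exception to the direction was Rspo1 at 0.48. The summed signal of the cortical markers was 26645 in sham and 14271 in 5/6Nx. Thalamic and habenular markers had a median of -0.32, with 5 of 7 below 0 and summed signals of 9433 and 6891. That median is the value of Calb2, which is also on the list of GABAergic interneuron markers. The lowest thalamic or habenular marker was Slc17a6, the glutamate transporter gene of thalamic neurons, at -1.58. In contrast, Tcf7l2 stood at 0.64 and Prkcd at 0.59, and Gbx2 had no probe well above background. Choroid plexus markers were higher in 5/6Nx (median 3.97, 9 of 9 above 0, Cldn2 above background in 5/6Nx only), with a summed signal of 25441 in sham and 282930 in 5/6Nx. Leptomeningeal markers (median -2.09, 10 of 10 below 0, 82408 and 19461) and blood cell markers (median -3.87, 7 of 7 below 0, 305572 and 21339) were lower. The part of these cell types and of dissection in the values of the kainate and delta receptor genes was not tested.

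**Figure D4:**
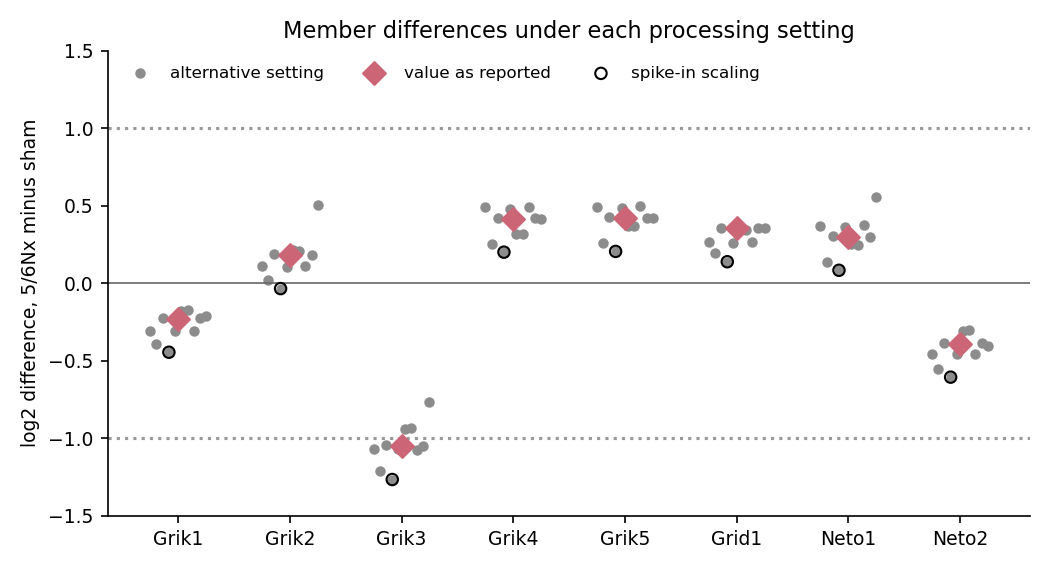
Log2 difference, 5/6Nx minus sham, of each member gene as reported (diamonds) and under 10 alternative settings (grey points, with the spike-in scaling ringed); dotted lines mark 2-fold. Grik2 crosses 0 under spike-in scaling (-0.035), Grik3 ranges from -1.27 to -0.76, and the other 6 genes stay on their side of 0 in every setting drawn.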

How the data were processed

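Per the file headers, the authors took spot intensity from each scan with Feature Extraction 10.7.1.1 (the submitters' processing notes name 9.5.1.1). Deposited processed intensity has background and spatial trend removed and is not normalized between arrays. Deposited coordinates are on mm9. The authors' deposited normalized table is linear intensity, and both of its columns agree after sorting within 0.0323%; its method is not given in the sources used here.

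Controls and outlier spots (105 sham, 97 5/6Nx) were excluded, log2 values were centred on the array's 75th percentile, and spots of a probe were averaged. A gene was measured when its brightest probe was well above background on both arrays. RefSeq names (GRCm38.p6) were matched through the accession for 27234 probes, the symbol for 3581 and a synonym for 564; the other 24295 keep the name in the file. A 2-fold difference is a size; no p-value was computed. The spot SD is the median SD of spot differences over replicated probes (319 in all) within 1 log2 unit of signal. Named genes are the 8 members and the 1 or 2 genes with the largest absolute difference in each pathway list; others named are markers or are said to be chosen afterwards. Members and lists were chosen with earlier results of these data known. Alternatives were quantile, median, detected-probe and spike-in scaling, lowess (span 0.3), normexp (limma 3.58.1, offset 50), no subtraction, the authors' table, outliers kept, probe averaging, other filters and a 1.5-fold threshold. The scaling and the differences were tested on simulated data with a single probe per gene, all above background. That simulation did not cover probe choice, the detection filter, background correction or the spot SD.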

Additional observations from a re-analysis of the deposited data

How the results depend on the processing

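No paired analysis was possible because sham and 5/6Nx hold a single array each, and no replicate could be left out for the same reason. Signal over background limits the dim probes, above all the second Grik3 probe. Of 80 values of member genes under 10 alternatives, 79 kept their sign, and the exception was Grik2 under spike-in scaling (-0.035). The alternatives process the same 2 arrays again, so such agreement says nothing about other animals. Some of them could hardly change a sign. Keeping outlier spots and scaling to detected probes moved the median of all measured genes by only 0.00064 and 0.0040. For a gene with 1 probe, the mean over all probes is the reported value itself. The median of the members was 0.078 after scaling to the median, 0.024 with the spike-in probes and 0.39 with the mean over all probes. No member was at least 2-fold lower (0) with normexp, without background subtraction or with the mean over all probes, where Grik3 stood at -0.94, -0.93 and -0.76; the mean takes in the second Grik3 probe, and for the other settings the cause was not tested. Over all genes, those at least 2-fold higher and lower numbered 799 and 1411 with spike-in scaling, 683 and 497 with normexp, 635 and 468 without background subtraction, 2590 and 1668 with no filter on dim probes, 319 and 305 above the median signal, and 3549 and 2313 at a 1.5-fold threshold, against 1268 and 852 as reported. The filters, the threshold and the constant shift of the spike-in scaling set these counts themselves, and the cause was not tested for the rest.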
